A study of Mus musculus with 3 samples.

Results

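Ciliated airway cells were examined in single-cell RNA sequencing of mouse lung, in which 208 of 6458 kept cell barcodes were members. A barcode was kept if 200 or more genes were detected and no more than 10% of its unique molecular identifiers (UMIs, counts of single RNA molecules) came from mitochondrial genes, and it was a member when Foxj1, Ccdc113, Tmem212, Ccdc153 and Rsph1 together had at least 5 UMIs and Ptprc, the pan-leukocyte gene, had 0. The rule found 93 members among 2296 kept cells of FLASH, 98 among 2434 of CONV and 17 among 1728 of the control. The FLASH library was lung of C57BL/6 females aged 10 to 12 weeks whose thorax received 17 Gy of 4.5 MeV electrons under isoflurane in FLASH mode, which delivers the dose at an ultra-high dose rate. The CONV library was lung after the same dose and electron energy in conventional mode, and the control library was lung of mice of that strain, sex and age without irradiation. Each group had 1 library, so no difference has a replicate check. All intervals are 95% intervals that cover counting error only. How many mice made up a library, and how long after irradiation they were taken, is not given in the sources used here.

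Multiciliated cells line the conducting airways and carry motile cilia that sweep mucus out of the lung. The ciliary core, the axoneme, is a ring of doublet microtubules around a central pair, with dynein arms that slide the doublets and radial spokes that coordinate them, and intraflagellar transport carries its parts from the cell body. Foxj1 is the forkhead factor that switches on the motile cilia genes, and RFX factors bind the X-box, a palindromic promoter element of many ciliary genes. These cells have left the cell cycle and lie in the airway epithelium beside club cells, which secrete Scgb1a1.

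The X-box letters were found in a minority of promoters of genes that mark these cells, and the matches are shown because this element is known from ciliary genes. Besides the 5 rule genes, 107 of the 663 genes with at least 30 UMIs in the members of every library were at least 10-fold higher than in all other kept cells of each library, and RefSeq promoters of build GRCm38.p6, from 250 bases before to 50 bases after the gene start, were matched for 90 of these 112 genes. The motif was GTTNCC, then 2 bases of any kind, then GGNAAC, its inverted repeat. A gene counted when any of its promoters held the motif. With at most 1 mismatch in the 10 fixed letters, it was found for 18 of the 90 genes (20%) and for 782 of all 27025 genes with a promoter (2.89%). This motif reads the same on both strands. Without any mismatch it was in 2 of the 90 (2.22%) and in 0.529% of all genes. The shorter motif GTTGCC, searched on both strands, was in 37 of the 90 (41.1%) and in 14.1% of all genes, and 12 genes held both, where the shorter motif can be part of the X-box match. The forkhead core TAAACA, on both strands, was in 17.8% and in 15.1%. A match describes letters and shows no binding. In the sites below, read 5′ to 3′ on the named strand, capitals mark fixed letters that match the motif.
Pifo, chr3:106001504-106001517, minus strand: GTTcCCttGGcAAC
1700088E04Rik, chr15:79141243-79141256, minus strand: GTTaCCatGGtAAC
Ccdc113, chr8:95534086-95534099, plus strand: GTTgtCtaGGcAAC
Ccdc153, chr9:44240525-44240538, plus strand: GTTgCCtgGacAAC
Spag6l, chr16:16829316-16829329, minus strand: GTTgCCctGGagAC
Cfap45, chr1:172521111-172521124, plus strand: GTTgCtatGGtAAC
Drc1, chr5:30281374-30281387, plus strand: tTTcCCttGGcAAC
Tekt4, chr17:25471430-25471443, plus strand: GTgtCCtgGGaAAC
Enkur, chr2:21205364-21205377, minus strand: GTTtCCttaGcAAC
Ift22, chr5:136908087-136908100, plus strand: GTTtCCtgGGctAC
Pifo, a ciliary gene, and 1700088E04Rik were the 2 genes without a mismatch. Ccdc113 and Ccdc153 are rule genes, Spag6l codes for a central pair protein, Drc1 for a subunit of the nexin link, Tekt4 for a filament protein of the doublets and Ift22 for a transport subunit. The Ccdc113 match began 14 bases before the gene start and the Spag6l match 34 bases after it. The 2 promoters below are shown in full, with the match in capitals, for the place of the element near the gene start.
Ccdc113 promoter, chr8:95533850-95534149, plus strand: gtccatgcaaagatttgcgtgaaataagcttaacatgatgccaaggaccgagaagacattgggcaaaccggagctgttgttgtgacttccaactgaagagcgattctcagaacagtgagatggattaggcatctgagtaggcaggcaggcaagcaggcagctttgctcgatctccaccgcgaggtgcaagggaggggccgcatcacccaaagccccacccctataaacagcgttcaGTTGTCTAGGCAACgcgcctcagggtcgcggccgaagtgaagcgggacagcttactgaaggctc
Spag6l promoter, chr16:16829314-16829613, minus strand: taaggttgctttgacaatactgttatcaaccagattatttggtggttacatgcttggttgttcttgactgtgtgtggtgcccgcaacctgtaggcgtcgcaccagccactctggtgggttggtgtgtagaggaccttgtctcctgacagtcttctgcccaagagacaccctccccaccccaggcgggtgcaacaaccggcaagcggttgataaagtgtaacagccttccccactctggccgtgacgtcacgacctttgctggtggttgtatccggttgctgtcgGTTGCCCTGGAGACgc

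The members had a clear border in the marker sum and, summed together, expressed ciliary genes that the rule did not use. The marker sum was at most 3 in kept cells without Ptprc below the limit, and no such cell had a sum of 4. Just inside the limit, 3 FLASH and 5 CONV members had sums of 5 to 9, and the lowest member had 6 in FLASH, 5 in CONV and 13 in the control. Barcodes that reached the marker limit but had Ptprc, and so were no members, numbered 6 in FLASH, 10 in CONV and 4 in the control. All 10 independent ciliated markers were detected in the members of each library, with a summed level of 13154 CPM in FLASH, 10847 CPM in CONV and 16940.1 CPM in the control, against 329 CPM in FLASH, 347 CPM in CONV and 193 CPM in the control over all other kept cells, where CPM (counts per 1e6) is the share of a gene in all UMIs of the summed cells. Tppp3, a tubulin polymerization factor of cilia, was at 4019 CPM in FLASH, 3342 CPM in CONV and 5697 CPM in the control, and Dynlrb2, a dynein light chain, at 2180.3 CPM in FLASH, 1728 CPM in CONV and 2749.6 CPM in the control, with CONV at 2604 CPM when the Scgb1a1-rich barcodes described further on were left out. Markers of basal, neuroendocrine and tuft cells summed to at most 2.47 CPM in any library. Because the cells were chosen by expression, these levels are a description. Median depth was 3526 UMIs per member in FLASH, 4327.5 in CONV and 6402 in the control, so the control had the fewest but deepest cells. Between 5 and 7 barcodes were shared by each pair of libraries, and none of them was a member in both.

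Among genes outside the rule with at least 30 UMIs in each library, 47 were at least 50-fold higher in members than in all other kept cells of every library. Of these 47, 15 are in the 6 ciliary lists described further on. How many of all 663 such genes are in those lists was not counted, so the 15 are a description. Cfap161, a cilia and flagella associated gene, led them at 155-fold in FLASH, 129.6-fold in CONV and 275-fold in the control. Sntn, which codes for sentan of the ciliary tip, was higher by 101-fold in FLASH, 86.1-fold in CONV and 312-fold in the control. Dnah12, an axonemal dynein heavy chain, was higher by 93.4-fold in FLASH, 109-fold in CONV and 168-fold in the control, and Spag6l by 183-fold in FLASH, 82.6-fold in CONV and 127-fold in the control. The order of these folds follows the lowest of the 3 libraries and rests partly on a handful of UMIs in the other cells.

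A group of 20 members stood apart by Scgb1a1. It made up 7.09% to 61.0% of the UMIs of 6 FLASH and 14 CONV members and at most 3.13% in the other 188. No control member was among them, and 0 of 17 allows a share of up to 19.5% by the exact interval. These 20 barcodes had median totals of 15753 UMIs in FLASH and 15964 in CONV, against 3396 and 3893.5 in the other FLASH and CONV members. Club cells, defined by at least 5 UMIs of Cyp2f2 and Scgb3a2 together, no Ptprc and a ciliated marker sum under 5, had medians of 11823 UMIs in FLASH and 11978 in CONV. The Scgb1a1-rich barcodes had median marker sums of 22.5 in FLASH and 23 in CONV, against 26 in the other FLASH and 31 in the other CONV members. Ciliary genes were 1.06% of the UMIs of Scgb1a1-rich barcodes in FLASH and 0.871% in CONV as medians, against 4.15% in the other FLASH members, 4.19% in the other CONV members and 4.49% in the control members. The lowest ciliary share among Scgb1a1-rich barcodes was 0.340% in FLASH and 0.139% in CONV. Club cells reached 0.379% in FLASH and 0.28% in CONV, so some of these barcodes had no higher share than the highest club cell. One cell with both programmes, 2 cells in 1 droplet and other origins cannot be told apart here. The Scgb1a1-rich barcodes held 20.3% of all member UMIs in FLASH and 41.3% in CONV, so levels are given with them and, where they change a value by over 1.5 times or a call, without them.

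**Figure D1:**
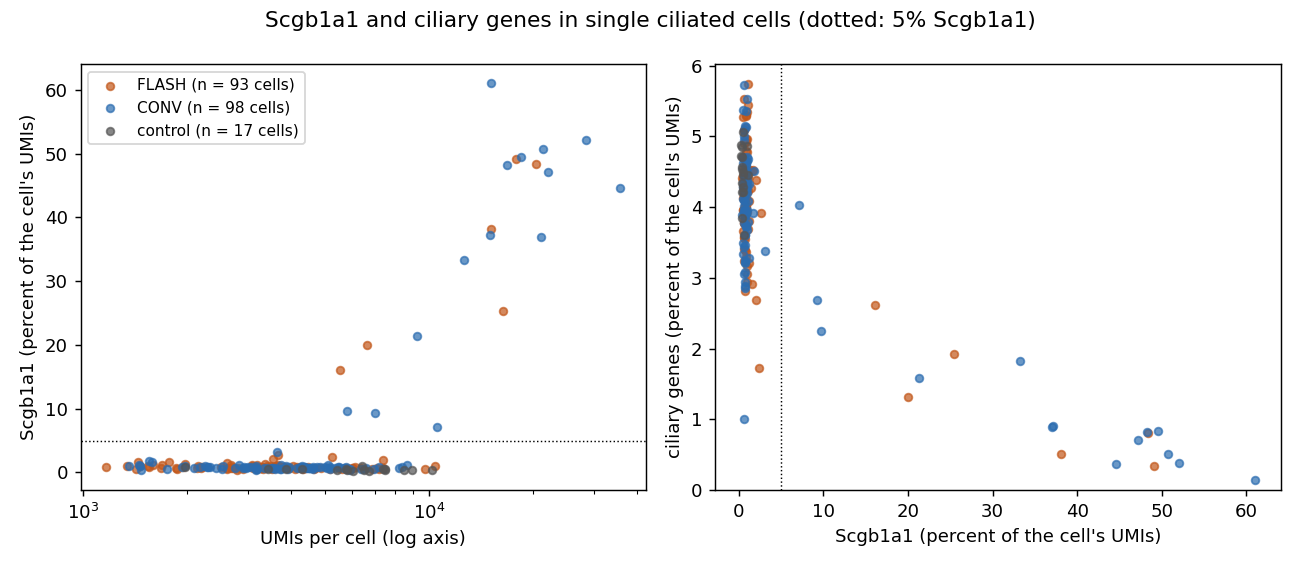
Each point is 1 ciliated member; the left plot sets the Scgb1a1 share of its UMIs (percent) against its UMIs (log axis), and the right plot the share of 161 ciliary genes (percent) against the Scgb1a1 share. The 20 members above the dotted 5% line are 6 FLASH and 14 CONV barcodes, with more UMIs and a lower ciliary share than most others; no control member lies there.

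Members were a larger share of both irradiated libraries than of the control. They were 4.05% (3.28 to 4.94) of kept cells in FLASH, 4.03% (3.28 to 4.89) in CONV and 0.984% (0.574 to 1.57) in the control. The difference was 3.07 percentage points (2.13 to 4.03) for FLASH minus control, 3.04 (2.12 to 3.97) for CONV minus control and 0.0242 (-1.10 to 1.16) for FLASH minus CONV, by Newcombe intervals. Among kept cells without Ptprc, members were 5.70% in FLASH, 5.83% in CONV and 1.94% in the control. Among ciliated, club and alveolar type 2 (AT2) cells together they were 20.8% in FLASH, 18.4% in CONV and 9.77% in the control, where AT2 cells had at least 20 UMIs of Sftpa1, Lamp3, Slc34a2 and Napsa. Set against club cells alone, which numbered 33 in FLASH, 43 in CONV and 29 in the control, members were 73.8% (65.2 to 81.2) in FLASH, 69.5% (61.2 to 77.0) in CONV and 37.0% (23.2 to 52.5) in the control. The irradiated intervals lay above that of the control for each of the 4 denominators, and those of FLASH and CONV overlapped. Numbers of cells in the lung, their release by dissociation and their loading cannot be told apart in shares of 1 library per group. Leaving out barcodes with club or AT2 markers lowered the shares to 1.79% in FLASH, 1.23% in CONV and 0.289% in the control, with the same order of irradiated over control.

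**Figure D2:**
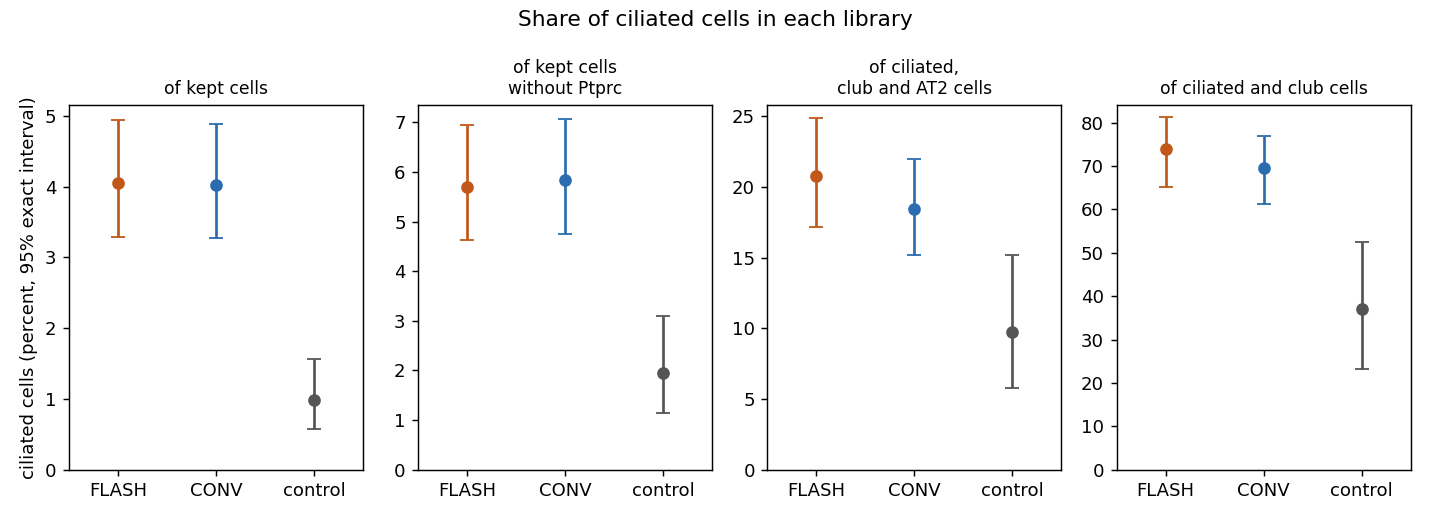
Points are the percent of ciliated members in FLASH, CONV and control libraries with exact 95% intervals, for 4 denominators with their own axes from 0. FLASH and CONV lie close together (4.05% and 4.03% of kept cells) and above the control (0.984%).

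The ciliary programme stood closer to the control level once the Scgb1a1-rich barcodes were set aside. The 6 ciliary lists together were at 0.771 of the control in FLASH and 0.631 in CONV over all members. Without these barcodes they were at 0.909 in FLASH and 0.926 in CONV. All of these barcodes are irradiated and low in ciliary share, so leaving them out raises the irradiated levels. With all members kept and ratios scaled by their median, the values were 0.867 in FLASH and 0.803 in CONV. For all tested genes, ciliary or not, the median log2 ratio over all members was shifted to 0.19 for FLASH over CONV. It was -0.17 for FLASH over control and -0.35 for CONV over control. Without the Scgb1a1-rich barcodes these medians were -0.00, -0.02 and 0.02. A gene was tested when its pooled level would give at least 10 UMIs in the smaller library, and it was counted as different at 2-fold or more. Over all members, 64 of 1784 tested genes were at least 2-fold higher in FLASH than in the control (3.59%) and 48 were lower (2.69%). In CONV, 62 of 1600 were higher than in the control (3.88%) and 105 lower (6.56%). Both sets of values share the control library. With the Scgb1a1-rich barcodes left out, the counts were 79 higher (4.14%) and 28 lower (1.47%) in FLASH, and 76 higher (4.09%) and 43 lower (2.32%) in CONV.

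Axonemal dynein chains, the motors of the cilium, summed to 5588 CPM in FLASH, 4415 CPM in CONV and 6846 CPM in the control over all members. Once these barcodes were left out they were at 6674 CPM in FLASH, 6471 CPM in CONV and 6846 CPM in the control, and their median log2 ratio was 0.04 for FLASH over control over 15 tested genes and -0.01 for CONV over control over 13. Of these, 0 passed 2-fold for FLASH over control, and Dnah9, at 127 CPM in FLASH, 144 CPM in CONV and 65.9 CPM in the control, was the 1 that did for CONV over control. The light chain Dynlrb2, given above as a marker, held many of the UMIs of this dynein list, 2175 over the 3 libraries. Factors that dock and assemble dynein had medians of -0.09 in FLASH and -0.16 in CONV without these barcodes, with 0 of 6 and 0 of 7 tested genes past 2-fold. Radial spoke and nexin link genes had medians of -0.08 in FLASH and -0.04 in CONV, again with 0 genes past 2-fold of 17 and 16. Over all members, Dnah6, Spef1, Cfap206, Tekt1, Tekt2, Cfap52 and Ift46 were the 7 of 75 tested genes of the 6 ciliary lists at least 2-fold lower in CONV than in the control (9.33%, against 6.56% of all tested genes). Without these barcodes 0 of 88 were lower and 4 were higher (4.55%, against 4.09% of all tested genes), namely Dnah9, Mns1, 1700012B09Rik and Cluap1. Tekt1, a filament protein of the doublets, was at 309 CPM in FLASH, 238 CPM in CONV and 621 CPM in the control over all members and at 373 CPM in FLASH, 359 CPM in CONV and 621 CPM in the control without them.

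The tubulins and inner doublet proteins, which build the microtubule wall, had a lower summed level in the irradiated libraries, but no gene of the list was at least 2-fold lower without those barcodes. The sum was 15849 CPM in FLASH, 13244 CPM in CONV and 21564 CPM in the control over all members and 18629.5 CPM in FLASH, 19499 CPM in CONV and 21564 CPM in the control without the Scgb1a1-rich barcodes, a ratio to the control of 0.864 (0.823 to 0.907) in FLASH and 0.904 (0.862 to 0.949) in CONV. Of 21 genes tested without them, 2 were at least 2-fold higher in CONV than in the control, Mns1 at 2.04-fold (1.22 to 3.62) and 1700012B09Rik at 2.08-fold (1.26 to 3.63). Tuba1a, an alpha tubulin, was at 3143 CPM in FLASH, 3129.8 CPM in CONV and 3879.6 CPM in the control without them. Central pair genes stood at 0.828 (0.739 to 0.93) of the control in FLASH and 0.857 (0.766 to 0.961) in CONV without them, with Calm2, a calmodulin gene that many cells express, holding many of the UMIs. Cfap54, of the central pair, was the 1 gene of that list at least 2-fold higher in FLASH than in the control, at 2.15-fold (0.919 to 6.13) over all members. Spef1, a microtubule binding protein of the central pair, was at 220.5 CPM in FLASH, 247 CPM in CONV and 348 CPM in the control without them. Genes of intraflagellar transport and the BBSome were level, at 1.02 (0.93 to 1.12) in FLASH and 1.04 (0.948 to 1.14) in CONV. Ift43, a transport subunit, illustrates this at 671 CPM in FLASH, 679 CPM in CONV and 744 CPM in the control.

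**Figure D3:**
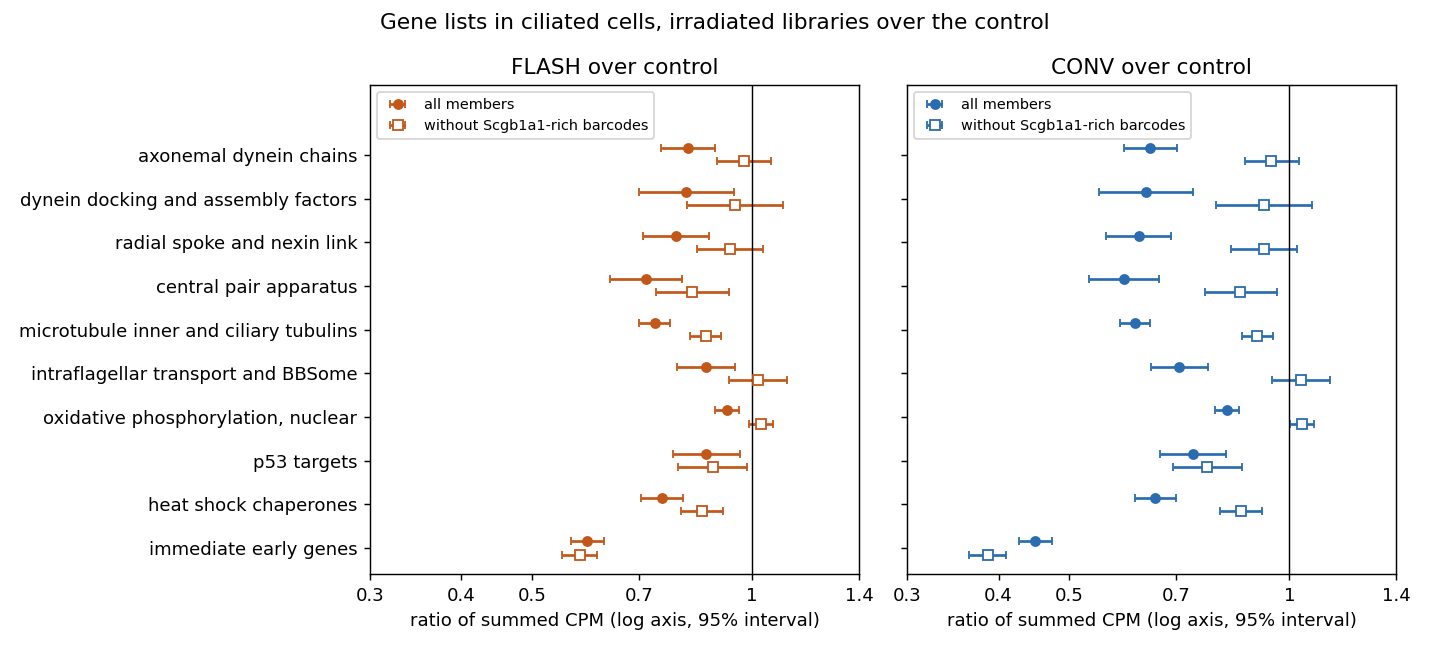
Ratios of summed CPM of 10 gene lists in FLASH (left) and CONV (right) over the control, on a log axis with 95% intervals; filled circles are all members and open squares leave out the Scgb1a1-rich barcodes. The ciliary lists move toward 1 without those barcodes, while the immediate early genes stay at 0.58 in FLASH and 0.387 in CONV.

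Among regulators, Foxj1 was at 604 CPM in FLASH, 433 CPM in CONV and 584 CPM in the control, and at 680.1 CPM in FLASH, 570.1 CPM in CONV and 584 CPM in the control without the Scgb1a1-rich barcodes. It belongs to the rule, so its level is a description. Foxa2, a forkhead factor of airway epithelium, was at 124 CPM in FLASH, 98.3 CPM in CONV and 122 CPM in the control. Sox2, a factor of the conducting airway lineage, was at 94 CPM in FLASH, 98.3 CPM in CONV and 9.42 CPM in the control, from 38, 57 and 1 UMIs in that order. Its ratio to the control was 9.99-fold (1.69 to 405) in FLASH and 10.4-fold (1.8 to 419) in CONV, with a single control UMI behind it. Sox2 was below the test limit over all members and passed it for CONV without the Scgb1a1-rich barcodes, at 15.9-fold (2.73 to 641). Myb, which acts early in multiciliogenesis, was at 52 CPM in FLASH, 67.3 CPM in CONV and 94.2 CPM in the control. Ccdc78, of the deuterosome that multiplies centrioles, was at 292 CPM in FLASH, 235 CPM in CONV and 452 CPM in the control over all members, and at 360.2 CPM in FLASH, 359 CPM in CONV and 452 CPM in the control without the Scgb1a1-rich barcodes. Of 20 regulators present in the files, 3 were tested against the control and none passed 2-fold in either irradiated library. Genes of dividing cells summed to 96.5 CPM in FLASH, 63.8 CPM in CONV and 132 CPM in the control, against 209 CPM in FLASH, 249 CPM in CONV and 2078 CPM in the control in all other kept cells.

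Immediate early genes, which respond within minutes to stress and growth signals, were lowest in CONV, intermediate in FLASH and highest in the control. The 25 genes of the list present in the files summed to 11637 CPM in FLASH, 8801 CPM in CONV and 19586 CPM in the control over all members, and to 11369 CPM in FLASH, 7570.4 CPM in CONV and 19586 CPM in the control without the Scgb1a1-rich barcodes. In the list, 4 of 19 tested genes were at least 2-fold lower in FLASH than in the control and 13 of 17 in CONV, against the background of 2.69% and 6.56% of all tested genes. The median log2 ratio was -0.85 for FLASH over control and -1.32 for CONV over control, where all tested genes had -0.17 and -0.35. Without the Scgb1a1-rich barcodes 6 of 19 were lower in FLASH, with a median of -0.87, and 14 of 19 in CONV, with a median of -1.52. One gene of the list, Cebpb, was higher in both and is described further on.

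Jun, a subunit of the AP-1 transcription factor, was at 1082 CPM in FLASH, 860.5 CPM in CONV and 2279 CPM in the control. That is 0.475-fold (0.405 to 0.558) for FLASH over control and 0.378-fold (0.323 to 0.442) for CONV over control. Fos, its partner, was at 1749.7 CPM in FLASH, 1261 CPM in CONV and 3154 CPM in the control, or 0.555-fold (0.486 to 0.634) in FLASH and 0.40-fold (0.351 to 0.456) in CONV relative to the control. Atf3, a stress-induced factor, was at 678 CPM in FLASH, 422 CPM in CONV and 1384 CPM in the control, and Dusp1, a phosphatase that switches off MAP kinases, at 509.8 CPM in FLASH, 326 CPM in CONV and 960.5 CPM in the control. Each of these genes had the order control, FLASH, CONV from high to low. Junb, Ier2 and Klf6 had the same order. Over all other kept cells this list was at 10768 CPM in FLASH, 9985 CPM in CONV and 8782 CPM in the control. The members did not share that order. AT2 cells had the members' order, with Jun at 852 CPM in FLASH, 708 CPM in CONV and 1123 CPM in the control. Thinned to 1000 UMIs, 43.3% of FLASH, 28.4% of CONV and 50.8% of control AT2 cells had at least 10 UMIs of the list. The FLASH and control intervals overlapped. Club cells had 18.2% in FLASH, 18.6% in CONV and 31.0% in the control, with overlapping intervals.

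These transcripts were spread unevenly over the members. With each member thinned to 1000 UMIs and the Scgb1a1-rich barcodes set aside, the median was 5 immediate early UMIs in FLASH, 3 in CONV and 4 in the control. At least 10 were found in 34 of 87 FLASH members (39.1%, 28.8 to 50.1), 20 of 84 CONV members (23.8%, 15.2 to 34.3) and 7 of 17 control members (41.2%, 18.4 to 67.1). These intervals overlap. Without thinning, the same proportion or more was found in 40.2% of these FLASH, 23.8% of CONV and 47.1% of control members. Few cells lay near the limit: 7 FLASH, 5 CONV and 0 control members had 8 to 12. In the members above the limit the list stood at 24231 CPM in FLASH, 20876 in CONV and 38807 in the control, and in those below it at 3177 CPM in FLASH, 2878 in CONV and 3161 in the control. The limit was set on these same counts, so the split is a range and no cell type. Mt1, outside the list, was at 5283 CPM in FLASH, 4791 CPM in CONV and 11117 CPM in the control above the limit, and at 2669 CPM in FLASH, 2206 CPM in CONV and 2654 CPM in the control below it. The control value rests on few cells: 1 control member held 24.4% of the control's Jun UMIs and 1 held 19.1% of its Fos UMIs. Leaving out every member with club or AT2 markers left 5 control cells. It moved the list's ratio to the control to 0.809 in FLASH and 0.725 in CONV. Fos then turned direction, to 2.05-fold of the control in FLASH and 1.80-fold in CONV.

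**Figure D4:**
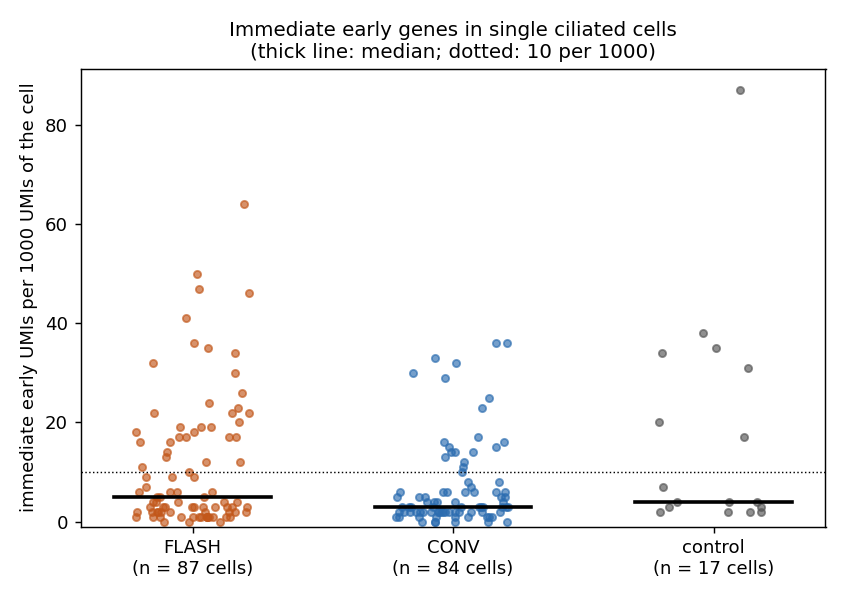
Immediate early UMIs per 1000 UMIs in each of 87 FLASH, 84 CONV and 17 control members without the Scgb1a1-rich barcodes; thick lines are medians (5, 3 and 4) and the dotted line marks 10. Most members lie below 10 in all 3 libraries, with a scattered upper group that holds 39.1% of FLASH, 23.8% of CONV and 41.2% of control members.

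Metallothioneins, which bind zinc and copper, followed the same order. Mt1 was at 3378 CPM in FLASH, 2152 CPM in CONV and 6554 CPM in the control, or 0.515-fold (0.47 to 0.566) for FLASH over control and 0.328-fold (0.299 to 0.361) for CONV over control. Mt2 was at 869 CPM in FLASH, 507 CPM in CONV and 1516 CPM in the control. Both passed 2-fold for CONV over control and not for FLASH over control, with and without the Scgb1a1-rich barcodes. In all other kept cells together Mt1 ran the other way, at 1046 CPM in FLASH, 745 CPM in CONV and 426 CPM in the control. The make-up of the kept cells differed between libraries. Those without Ptprc were 1631 of 2296 in FLASH, 1681 of 2434 in CONV and 875 of 1728 in the control. Make-up and level cannot be told apart in values over all other kept cells, for Mt1 or any other gene here. In AT2 cells thinned to equal UMIs, Mt1 was detected in 37.1% of FLASH, 30.2% of CONV and 39.8% of control cells. That is the order of the members, with overlapping intervals. Among further genes lower than in the control, Acot1, an acyl-CoA thioesterase, was at 327 CPM in FLASH, 317 CPM in CONV and 895 CPM in the control, and Dynlt1c, a dynein light chain, at 166 CPM in FLASH, 126 CPM in CONV and 405 CPM in the control, where leaving out the Scgb1a1-rich barcodes moved CONV to 191 CPM. Reads of Acot1 and Dynlt1c can be split among near-identical copies, so their levels are uncertain. H3f3b, a replication-independent histone H3 gene, was at 3138 CPM in FLASH, 2437 CPM in CONV and 5687 CPM in the control, and was lower in the irradiated libraries in all other kept cells as well, at 1914 CPM in FLASH, 1679 CPM in CONV and 3887 CPM in the control. Acot1 and H3f3b lost the 2-fold call for CONV over control without the Scgb1a1-rich barcodes, at 0.552 and 0.571.

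Cebpb was far higher in the irradiated libraries than in the control. This transcription factor of stress and inflammation was at 401 CPM in FLASH, 529 CPM in CONV and 18.8 CPM in the control, from 162, 307 and 2 UMIs in that order, and was found in 72 of 93 FLASH, 89 of 98 CONV and 2 of 17 control members. The ratio was 21.3-fold (5.8 to 177) for FLASH over control and 28.1-fold (7.72 to 233) for CONV over control. It was not particular to ciliated cells: all other kept cells had 819 CPM in FLASH, 977 CPM in CONV and 62.1 CPM in the control, club cells 168 CPM in FLASH, 276 CPM in CONV and 31 CPM in the control and AT2 cells 97.5 CPM in FLASH, 133 CPM in CONV and 12.1 CPM in the control. Dbp, a clock output factor, was at 255 CPM in FLASH, 203 CPM in CONV and 28.2 CPM in the control, or 9.02-fold (3.0 to 44.5) for FLASH over control and 7.2-fold (2.41 to 35.4) for CONV over control, and AT2 cells had 255 CPM in FLASH, 202 CPM in CONV and 26.7 CPM in the control. Only 2 of 19 clock genes were tested against the control. Per3, the other one, was at 139 CPM in FLASH, 167 CPM in CONV and 113 CPM in the control, within 2-fold in both comparisons.

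Further genes were higher in the irradiated members than in those of the control. Lgals3, the galectin-3 gene, was at 817 CPM in FLASH, 528 CPM in CONV and 169 CPM in the control, and S100a6, a calcium-binding protein gene, at 1059 CPM in FLASH, 848 CPM in CONV and 264 CPM in the control, both at least 2-fold above the control in FLASH and in CONV. In all other kept cells S100a6 was at 1074 CPM in FLASH, 1056 CPM in CONV and 490.1 CPM in the control. Cyp2a5, a cytochrome P450 gene whose reads can be shared with close copies, was at 299 CPM in FLASH, 307 CPM in CONV and 65.9 CPM in the control, from 24, 37 and 3 members in that order. With the Scgb1a1-rich barcodes left out it was at 319.9 CPM in FLASH, 508 CPM in CONV and 65.9 CPM in the control, and 0.629-fold (0.488 to 0.808) for FLASH over CONV, with 37.9% of the FLASH UMIs in 1 cell. S100a8, a neutrophil gene, was at 287 CPM in FLASH, 143 CPM in CONV and 37.7 CPM in the control in members and 739.6 CPM in FLASH, 779 CPM in CONV and 459.9 CPM in the control in all other kept cells, so the irradiated members did not exceed the level of the library around them.

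Genes of other cell types that leaned toward the irradiated libraries are given with the levels around them. Sftpb, a surfactant protein gene, was at 631 CPM in FLASH, 1645 CPM in CONV and 94.2 CPM in the control over all members and at 301 CPM in FLASH, 449.6 CPM in CONV and 94.2 CPM in the control without the Scgb1a1-rich barcodes. Of the UMIs left, 1 FLASH member held 32% and 1 CONV member 51.6%. Hp, the haptoglobin gene, was at 1304 CPM in FLASH, 2378 CPM in CONV and 584 CPM in the control over all members, against 848 CPM in FLASH, 908 CPM in CONV and 584 CPM in the control without those barcodes, and lost both calls. AT2 markers summed to 4796 CPM in FLASH, 7351 CPM in CONV and 951 CPM in the control in members and 58403 CPM in FLASH, 62763 CPM in CONV and 35784 CPM in the control in all other kept cells. Sftpc, the defining AT2 gene, was at 3982 CPM in FLASH, 5842 CPM in CONV and 829 CPM in the control, with 28.9% of the FLASH and 33.3% of the CONV UMIs in 1 member each. Club markers summed to 96286 CPM in FLASH, 192723 CPM in CONV and 15273 CPM in the control over all members and 19456 CPM in FLASH, 18929 CPM in CONV and 15273 CPM in the control without the Scgb1a1-rich barcodes, and none of the 5 was at 0 in any library. Lamp3 was the 1 AT2 marker at 0, in the control members. The part of free RNA in these values was not tested.

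Targets of p53, the DNA damage regulator, were mostly within 2-fold of the control in members, while several were well above it in the club and AT2 cells of the same irradiated libraries. With 1 library per group this difference between cell types has no test. Cdkn1a, which codes for the cell cycle inhibitor p21, stood at 361 CPM in FLASH, 197 CPM in CONV and 329.6 CPM in the control in members. In AT2 cells it was at 529 CPM in FLASH, 466 CPM in CONV and 91.1 CPM in the control, and in club cells at 163 CPM in FLASH, 195 CPM in CONV and 6.2 CPM in the control. The ratio in members was 1.1-fold (0.754 to 1.63) for FLASH over control and 0.596-fold (0.405 to 0.898) for CONV over control. In AT2 cells the ratios were 5.81-fold (4.56 to 7.5) and 5.12-fold (4.03 to 6.58) in that order. These intervals leave out the spread between cells and between animals, so they cannot compare the cell types. The control level in members rests on few cells: 27 of its 35 Cdkn1a UMIs were in the 7 control members rich in immediate early UMIs. In members that were not Scgb1a1-rich, Cdkn1a was at 503 CPM in FLASH, 214 CPM in CONV and 552 CPM in the control above that limit. Below it, Cdkn1a was at 254 CPM (189 to 335) in FLASH, 191 CPM (141 to 253) in CONV and 140 CPM (60.3 to 275) in the control, so both irradiated libraries then stood above the control, with overlapping intervals.

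Further genes of the list are given in members and AT2 cells. Bax, a pro-apoptotic gene, was at 151 CPM in FLASH, 157 CPM in CONV and 160.1 CPM in the control in members and at 178 CPM in FLASH, 166 CPM in CONV and 61.9 CPM in the control in AT2 cells. Phlda3, an inhibitor of AKT signalling, was at 111 CPM in FLASH, 136 CPM in CONV and 104 CPM in the control in members and at 127 CPM in FLASH, 121 CPM in CONV and 4.86 CPM in the control in AT2 cells. Mdm2, which targets p53 for degradation, was at 181 CPM in FLASH, 138 CPM in CONV and 226 CPM in the control in members and at 33.8 CPM in FLASH, 39.8 CPM in CONV and 23.1 CPM in the control in AT2 cells. Ccng1, cyclin G1, was at 69.3 CPM in FLASH, 53.5 CPM in CONV and 37.7 CPM in the control in members, from 28, 31 and 4 UMIs in that order, too few to place its ratio of 1.84-fold (0.644 to 7.22) in FLASH or 1.42-fold (0.502 to 5.53) in CONV. Of 44 list genes, 9 were tested for FLASH over control, with 1 at least 2-fold higher (3.59% of all tested genes were) and 0 lower (2.69%), and 8 for CONV over control, with 1 higher (3.88%) and 1 lower (6.56%). The higher one was Ephx1, an epoxide hydrolase gene, at 119 CPM in FLASH, 126 CPM in CONV and 56.5 CPM in the control over all members and at 112 CPM in FLASH, 115 CPM in CONV and 56.5 CPM in the control without the Scgb1a1-rich barcodes. The lower one was Btg2, an antiproliferative gene that the immediate early list also holds, at 666 CPM in FLASH, 593 CPM in CONV and 1318 CPM in the control over all members and at 596 CPM in FLASH, 461 CPM in CONV and 1318 CPM in the control without those barcodes. When they were left out, Ephx1 lost its call for FLASH over control, at 1.98-fold (0.826 to 5.75), and Btg2 gained one, at 0.452-fold (0.362 to 0.566), so that 0 of 9 were higher and 1 lower in FLASH.

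**Figure D5:**
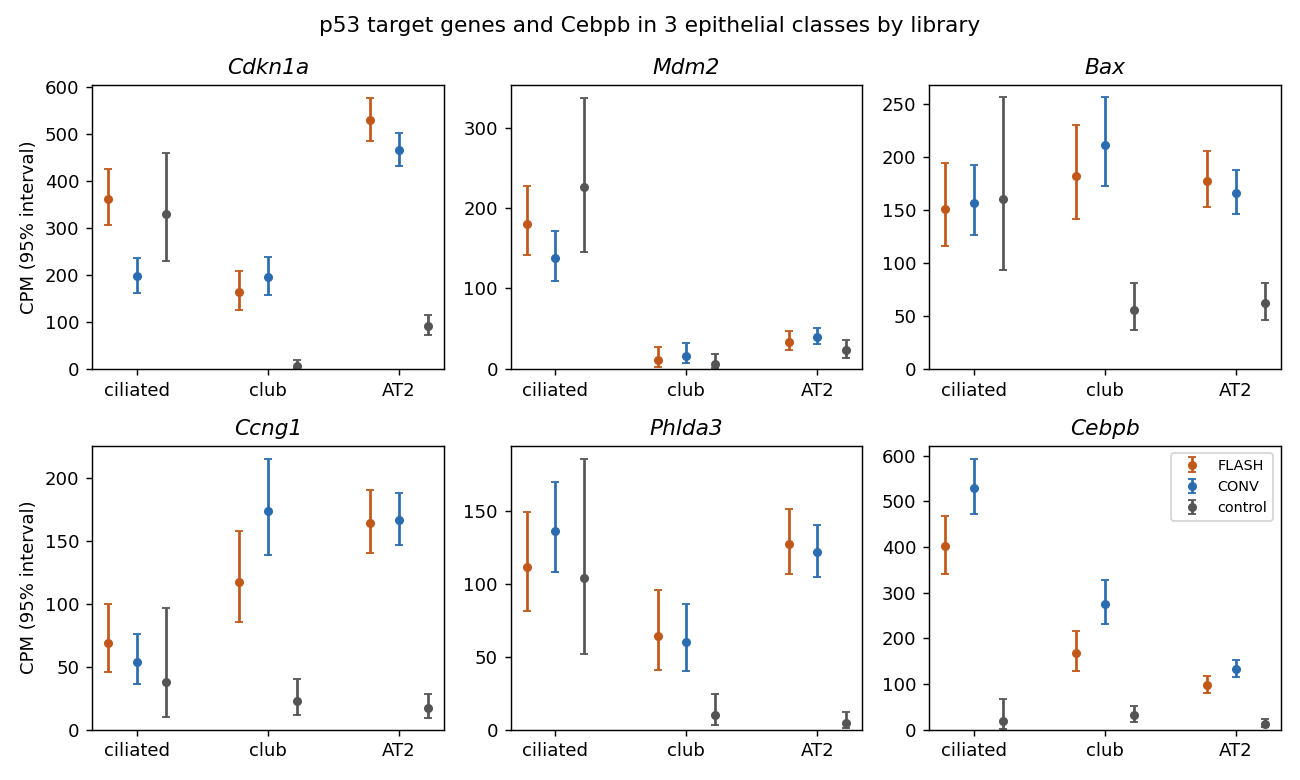
CPM with 95% intervals (linear axes from 0) of 5 p53 target genes and Cebpb in ciliated members, club cells and AT2 cells, each in FLASH, CONV and control order. Cdkn1a, Bax and Phlda3 of the irradiated libraries lie above the control in club and AT2 cells, while in ciliated members the control interval overlaps that of FLASH; Cebpb is above the control in all 3 classes.

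Genes of antigen presentation were low in members. Cd74, the MHC class II invariant chain, was at 262 CPM in FLASH, 272 CPM in CONV and 122 CPM in the control in members, against 3915 CPM in FLASH, 4145 CPM in CONV and 5607 CPM in the control in all other kept cells and 3743 CPM in FLASH, 3582 CPM in CONV and 5486 CPM in the control in AT2 cells. The MHC class II list summed to 577 CPM in FLASH, 555 CPM in CONV and 292 CPM in the control in members, against 6811 CPM in FLASH, 7189 CPM in CONV and 9444 CPM in the control in all other kept cells. Interferon-stimulated genes summed to 1898 CPM in FLASH, 1829.6 CPM in CONV and 3493 CPM in the control. The whole list had 767 UMIs in FLASH, 1061 in CONV and 371 in the control. In the control and CONV, single barcodes held many UMIs of some of these genes. Of 7 such genes (Isg15, Ifit1, Ifit3, Irf7, Rsad2, Rtp4 and Zbp1), 1 control member held 92 of the control's 117 UMIs, and the next had 11. In CONV 1 Scgb1a1-rich barcode held 39 of 83 UMIs, and in FLASH no member had more than 4 of 38. Heat shock chaperones summed to 9677 CPM in FLASH, 9733 CPM in CONV and 11337 CPM in the control without the Scgb1a1-rich barcodes, and Hsp90aa1, a cytosolic chaperone, was at 2369 CPM in FLASH, 2128 CPM in CONV and 2966 CPM in the control. Nuclear genes of oxidative phosphorylation, which supplies ATP, had medians of -0.01 in FLASH and 0.04 in CONV on the log2 scale without them.

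Between the irradiation modes, a small share of tested genes passed 2-fold in the members. Over all members a gene needed a pooled level of 24.7 CPM to be tested here. It needed 94.2 CPM for FLASH or CONV over control, so these counts are not at like limits. Over all members, 146 of 4868 tested genes were at least 2-fold higher in FLASH than in CONV (3.0%) and 62 lower (1.27%). Without the Scgb1a1-rich barcodes, 113 of 4580 were higher (2.47%) and 82 lower (1.79%). Areg, the gene of the EGF receptor ligand amphiregulin, was at 272 CPM in FLASH, 93.1 CPM in CONV and 75.3 CPM in the control, or 2.92-fold (2.09 to 4.13) for FLASH over CONV. It was found in 30 FLASH, 26 CONV and 5 control members, with 21.8% of the FLASH UMIs in 1 cell. Cdkn1c, the cell cycle inhibitor p57, was at 299 CPM in FLASH, 109 CPM in CONV and 574 CPM in the control, or 2.76-fold (2.02 to 3.8) for FLASH over CONV, and 1 FLASH member held 24% and 1 control member 32.8% of its UMIs. After thinning to 1000 UMIs, Cdkn1c was detected in 24.7% of FLASH, 13.3% of CONV and 29.4% of control members, against 2.49%, 1.28% and 0.781% of AT2 cells of those libraries. The thinned share depends on the random draw, and a second draw gave 41.2% of the same control members. Unthinned, the shares were 47.3% of FLASH, 38.8% of CONV and 58.8% of control members.

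Ghrl, the ghrelin gene, was at 178 CPM in FLASH, 69 CPM in CONV and 141 CPM in the control, and at no more than 1.04 CPM in all other kept cells of any library. Its ratio was 2.58-fold (1.73 to 3.9) for FLASH over CONV and 2.03-fold (1.33 to 3.12) without the Scgb1a1-rich barcodes. Ccdc34, a coiled-coil gene, was at 139 CPM in FLASH, 56.9 CPM in CONV and 113 CPM in the control, and Kcnj13, a potassium channel gene, at 99 CPM in FLASH, 39.7 CPM in CONV and 104 CPM in the control. Over all members, FLASH was near the control and CONV below them for both. Each gene had UMIs in only 8 of 17 control members, and 1 FLASH cell held 21.4% of the FLASH Ccdc34 UMIs. Without the Scgb1a1-rich barcodes the ratio of FLASH to CONV was 2.24-fold (1.38 to 3.71) for Ccdc34 and 2.11-fold (1.19 to 3.88) for Kcnj13. Reg3g, an antibacterial lectin gene, was at 423 CPM in FLASH, 24.1 CPM in CONV and 0.0 CPM in the control, but it was found in 8 FLASH and 6 CONV members and 1 FLASH cell held 48.5% of the FLASH UMIs. Its ratio of 17.5-fold (10.2 to 32.7) for FLASH over CONV was 7.75-fold (4.22 to 15.6) without the Scgb1a1-rich barcodes. It was named after its values were seen.

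Of the 8 genes named for being lower in FLASH than in CONV, several changed when the Scgb1a1-rich barcodes, more numerous in CONV, were left out. Cldn10, a claudin gene, was at 37.1 CPM in FLASH, 112 CPM in CONV and 0.0 CPM in the control over all members and at 0.0 CPM in FLASH, 2.94 CPM in CONV and 0.0 CPM in the control without those barcodes. Sftpd, a surfactant collectin gene, was at 151 CPM in FLASH, 409 CPM in CONV and 28.2 CPM in the control over all members, and its ratio of 0.369 for FLASH over CONV became 0.75 without them. The same ratio for Hp was 0.548 and 0.934. Gsta3, Plpp3 and Pdlim2 had ratios of 0.492, 0.338 and 0.205, and of 0.732, 0.66 and 0.352 without them. Myl9, a myosin light chain gene of smooth muscle, stayed lower, at 0.261-fold (0.0894 to 0.631), or 0.182-fold (0.0551 to 0.476) without them, from 6 FLASH, 33 CONV and 1 control UMIs. With those barcodes left out, other genes were lower in FLASH than in CONV. They included 1700012B09Rik at 0.493-fold (0.352 to 0.683), S100b at 0.423-fold (0.221 to 0.772) and Cebpb at 0.667-fold (0.538 to 0.826). Among the immediate early genes, 0 of 22 passed 2-fold for FLASH over CONV over all members, with a median log2 ratio of 0.44. Without the Scgb1a1-rich barcodes Atf3, Zfp36 and Dusp1 did, and the median was 0.62. Atf3 was then 2.37-fold (1.85 to 3.05), Zfp36, which destabilizes mRNA, 2.59-fold (1.87 to 3.64) and Dusp1 2.18-fold (1.66 to 2.88).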

How the data were processed

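Single-cell suspensions of mouse lung were sequenced with 10x Genomics 3' v2 chemistry, 1 library per group. The authors deposited raw UMI counts per gene and barcode, and per the submitters' processing notes the tool was Cell Ranger 2.0 and the build mm10. Library totals were 5498902 UMIs in FLASH, 7463259 in CONV and 7114360 in the control. From the deposited counts, barcodes were kept and members chosen by the rule given in the report. Member counts were summed per library and divided by their total (CPM). No test was possible with 1 library per group. Counts have exact Poisson intervals, ratios exact conditional binomial intervals, shares exact Clopper-Pearson intervals, and differences between shares intervals by Newcombe's method, all at 95% and covering counting error only. No doublet caller was run.

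The members and gene lists were chosen with earlier results of these data known. Genes named in each comparison were the 8 highest and 8 lowest ratios ranked by the interval bound nearest to 1, with at least 30 UMIs in members of the higher library, no cell over 25% of them, and a CPM at least 25% of that of the other cells. Marker lists of other cell types were left out of that ranking. The 6 genes with most UMIs were taken from each list, and the 20 genes with the highest fold over other cells. Other genes, such as single list members past 2-fold, were named after their values were seen. The calculation was tested on simulated sums without spread between cells, so that test does not cover genes with many UMIs in single cells. Python 3.11.15, numpy 2.4.6, scipy 1.17.1, pandas 2.3.3 and matplotlib 3.10.9 were used. One gene that this rule names is not reported here.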

Additional observations from a re-analysis of the deposited data

How the results depend on the processing

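No paired analysis was possible because each group had 1 library. Of 120 alternative values for the shares and gene counts, 79 stayed near the reported value. For single genes and lists 847 of 1289 did, 441 moved and 1 reversed. The reversed one was Fos in CONV over control, at 1.80 without members holding club or AT2 markers. Fos in FLASH over control turned to 2.05 there as well. It counts as moved, because only ratios past 2-fold could count as reversed. The cause was not tested. Leaving out the Scgb1a1-rich barcodes was chosen after seeing the data. Few control members, and shallow FLASH cells, limit every ratio.

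Without members holding club or AT2 markers, shares of kept cells were 1.79% in FLASH, 1.23% in CONV and 0.289% in the control, and of kept cells without Ptprc 2.51% in FLASH, 1.78% in CONV and 0.571% in the control. With a mitochondrial limit of 5% CONV had 3.09% of kept cells and 4.67% of those without Ptprc, and thinning to 1000 UMIs with a marker limit of 2 gave 4.66% of the last.

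Counts of genes past 2-fold moved with the filter, the members kept and the scaling. At 5 UMIs, 427 were higher and 215 lower for FLASH over CONV, 199 and 151 for FLASH over control, and 160 and 288 for CONV over control. At 20 UMIs these were 26 and 15, 28 and 14, and 27 and 37. Without members holding club or AT2 markers they were 66 and 32, 22 and 8, and 22 and 14. Scaling without mitochondrial, ribosomal and other-type genes gave 73 higher and 109 lower for FLASH over CONV, 19 lower for FLASH over control and 25 lower for CONV over control, and scaling by the median ratio gave 73, 108, 19 and 25. A mean of per-cell CPM gave 127 lower for FLASH over CONV, 31 for FLASH over control and 42 for CONV over control. Without the Scgb1a1-rich barcodes 28 were lower for FLASH over control and 43 for CONV over control. The mitochondrial limit of 5% gave 36 higher for CONV over control.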
